A study of Mus musculus with 20 samples.

Results

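The genes of the COPII coat were followed in microglia, the resident macrophages of the brain, sorted from mouse frontal cortex. The family was chosen by name after Sec24b had been seen at low counts in the hC4A/- libraries, and the question put to it was whether the Sec24b paralogues were higher where Sec24b was low. It has 10 members (Sec24a, Sec24b, Sec24c, Sec24d, Sec23a, Sec23b, Sec31a, Sec13, Sar1a and Sar1b) of 54838 annotated genes, and all 10 entered the tests. Because the low value of Sec24b in hC4A/- selected the family, values of Sec24b that involve that genotype are given as a description. Only correlations of Sec13 with Sec24b, named below, carry a p-value there.

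COPII is the protein coat that shapes vesicles leaving the endoplasmic reticulum for the Golgi apparatus. The small GTPase Sar1 loads onto the membrane and recruits heterodimers of Sec23, which speeds GTP hydrolysis by Sar1, and Sec24, which picks the cargo. Heterotetramers of Sec13 and Sec31 then form the outer cage. Mammals carry several Sec24 genes that sort partly different cargo, with Sec24a and Sec24b in one subfamily and Sec24c and Sec24d in the other. Secreted complement proteins such as C4 are made at the endoplasmic reticulum and leave it by this route.

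Per the labels, RNA came from 1000 cells per mouse with high CD11b and low CD45 in flow cytometry, and amplified cDNA made by template switching went into Nextera libraries. The 20 libraries came from mice at postnatal day 40 with 5 genotype labels: hC4A/A (n = 2), hC4A/- (n = 5), hC4B/- (n = 4), C4-/- (n = 5) and WT, the wild type (n = 4). The prefix h marks human C4A or C4B carried as transgenic sequence, C4 acts in the classical pathway of complement, and the names with human genes do not state the mouse C4 alleles. Sex, litter and the cells in which the human sequence is expressed are not given in the labels.

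Libraries held 855099 to 2735181 counts over genes. The mouse gene C4b, which encodes C4, had 21 to 271 counts in libraries labelled hC4A/A, 5 to 45 in hC4A/-, 4 to 428 in hC4B/-, 7 to 157 in those labelled C4-/- and 0 to 2 in those labelled WT. C4b was thus counted in the libraries labelled C4-/- and nearly absent from those labelled WT, the reverse of what these names say, and every group below is named by its label only. All 4 libraries labelled WT carry deposited names of another form than the other 16, though all sample titles share the same form. The labels state no batch, so whether the WT libraries were handled apart is not known. Contrasts with WT could not separate such handling from genotype. Another 4 libraries, hC4A/A replicate 2, hC4B/- replicates 2 and 3 and C4-/- replicate 3, detected over 27000 genes each and are called broad below. Microglial markers were present in every genotype, with a summed level of 5486 to 9855 CPM in hC4A/- and 3819 to 9846 CPM over the other genotypes, the lowest in a broad library. In bulk samples of this kind, fewer cells that use a gene and less RNA per cell cannot be told apart.

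The upstream regions of Sec24b and Sec24c are shown first, because these were the 2 members with the lowest estimates in hC4A/- in all 3 contrasts of that genotype. The windows come from the RefSeq promoter table (build GRCm38.p6) and hold the 250 bases before the RefSeq start. The Sec24b window ends at the first exon of a protein-coding GENCODE transcript that starts at 130060907, and lies inside the gene's outer bounds, in an intron of a transcript without coding sequence that starts further out, at 130061553. The Sec24c window is trimmed to 237 bases, so that it stops before the first GENCODE exon. Both are written 5′ to 3′ on the strand of the gene, and the capitals mark ACGTGG, core letters of the element through which the unfolded protein response acts.
Sec24b, chr3:130060908-130061157, minus strand: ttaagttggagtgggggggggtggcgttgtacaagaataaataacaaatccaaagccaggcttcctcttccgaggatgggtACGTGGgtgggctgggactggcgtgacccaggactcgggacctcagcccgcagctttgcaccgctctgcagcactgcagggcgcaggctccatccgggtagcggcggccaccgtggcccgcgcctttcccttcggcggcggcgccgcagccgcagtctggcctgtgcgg
Sec24c, chr14:20674071-20674307, plus strand: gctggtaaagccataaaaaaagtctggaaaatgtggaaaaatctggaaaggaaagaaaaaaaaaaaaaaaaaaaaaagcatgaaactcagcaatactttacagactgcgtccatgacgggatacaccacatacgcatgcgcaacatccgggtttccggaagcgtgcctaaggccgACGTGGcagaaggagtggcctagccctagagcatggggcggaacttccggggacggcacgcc
The 10 members have 12 such windows, as Sec23b and Sec31a have 2 each. ACGTGG or its reverse complement CCACGT lay in 5 of the 12, those of Sec24b, Sec24c, Sec24d and Sar1a and the inner of the 2 Sec31a windows, against 6.91% of 32851 windows of the same length over all genes. The Sec31a window at the outer start of the gene did not hold it, nor did the windows of Sec24a, Sec23a, Sec23b, Sec13 and Sar1b. GAGGAAG or CTTCCTC, the core letters of the site read by the microglial lineage factor PU.1, lay in 3 of the 12 windows, those of Sec24a, Sec24b and Sec23a, against 10.6% of all windows. The only Sec24a window, at 51756835 to 51757084, lies inside the gene and not at its outer GENCODE start at 51763634. The Sar1b window reaches past that outer start, to 51763662. Beyond it, the region before the outer Sec24a start was not read for either motif. The 2 motifs did not overlap in the Sec24b window, where the PU.1-type letters began 190 bases before the start and ACGTGG 169 bases before it. These matches describe letters only. The Sec24b window was GC-rich (66% G or C) and the full Sec24c window less so (50.8%).

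Sec24b (ENSMUSG00000001052, GRCm38 chromosome 3, 129982759 to 130061553, minus strand), whose loss in mice is known to disturb neural tube closure and the export of the planar polarity protein Vangl2, was nearly uncounted in hC4A/-. Scaled by TMM, it had 3.22 and 35.0 CPM in hC4A/A, 0, 1.61, 1.37, 1.17 and 2.38 CPM in hC4A/-, 42.3, 42.2, 32 and 69.4 CPM in hC4B/-, 20.1, 3.73, 58.3, 2.15 and 65.2 CPM in libraries labelled C4-/-, and 5.34, 19.9, 8.43 and 8.94 CPM in those labelled WT. The hC4A/- libraries lay below every library of hC4A/A, hC4B/- and WT, and overlapped those labelled C4-/-, where replicates 2 and 4 were low as well. These levels rest on few reads: the 5 hC4A/- libraries held 14 counts of Sec24b in all, between 0 and 7 each, against 276 in hC4B/-, 230 in C4-/- and 77 in WT. In hC4A/- replicate 1, where none was counted, a floor of 3 counts allows a level of up to 2.07 CPM.

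The mean of Sec24b was 1.31 ± 0.863 CPM in hC4A/- (SD, n = 5), against 46.5 ± 16 CPM in hC4B/- (n = 4), 29.9 ± 30.0 CPM in C4-/- (n = 5) and 10.7 ± 6.38 CPM in WT (n = 4). As a description, the fitted log2 fold change in hC4A/- was -4.39 ± 0.99 (SE) against C4-/-, -5.03 ± 1.03 against hC4B/- and -2.90 ± 0.97 against WT. Without the 4 broad libraries the first was -3.70 and the second -5.51. Of the 2 hC4A/A libraries only the broad one was high. Order by mean put Sec24b highest in hC4B/-, then C4-/-, hC4A/A and WT, with neighbours in that order overlapping, and hC4A/- last.

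Sec24b was chosen as low in hC4A/- relative to the other genotypes, so contrasts among those genotypes are not fully independent of the choice. Among them, Sec24b had an estimate of 2.13 ± 0.98 on the log2 scale (SE) in hC4B/- against WT. In that contrast 4 of 4 hC4B/- libraries lay above all 4 WT libraries. How many of all genes separate in this way was not counted, so the separation is not read as a result. Sec24b did not pass there (edgeR adjusted p = 0.368, unadjusted p = 0.0374). Of 12680 genes, 1658 had an unadjusted p under 0.05 in that contrast. In C4-/- against WT the estimate was 1.49 ± 0.93 (adjusted p = 0.649) and in hC4A/A against WT 0.81 ± 1.14 (adjusted p = 0.863), and this hC4A/A value turned to -1.65 without the broad hC4A/A replicate 2.

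**Figure D1:**
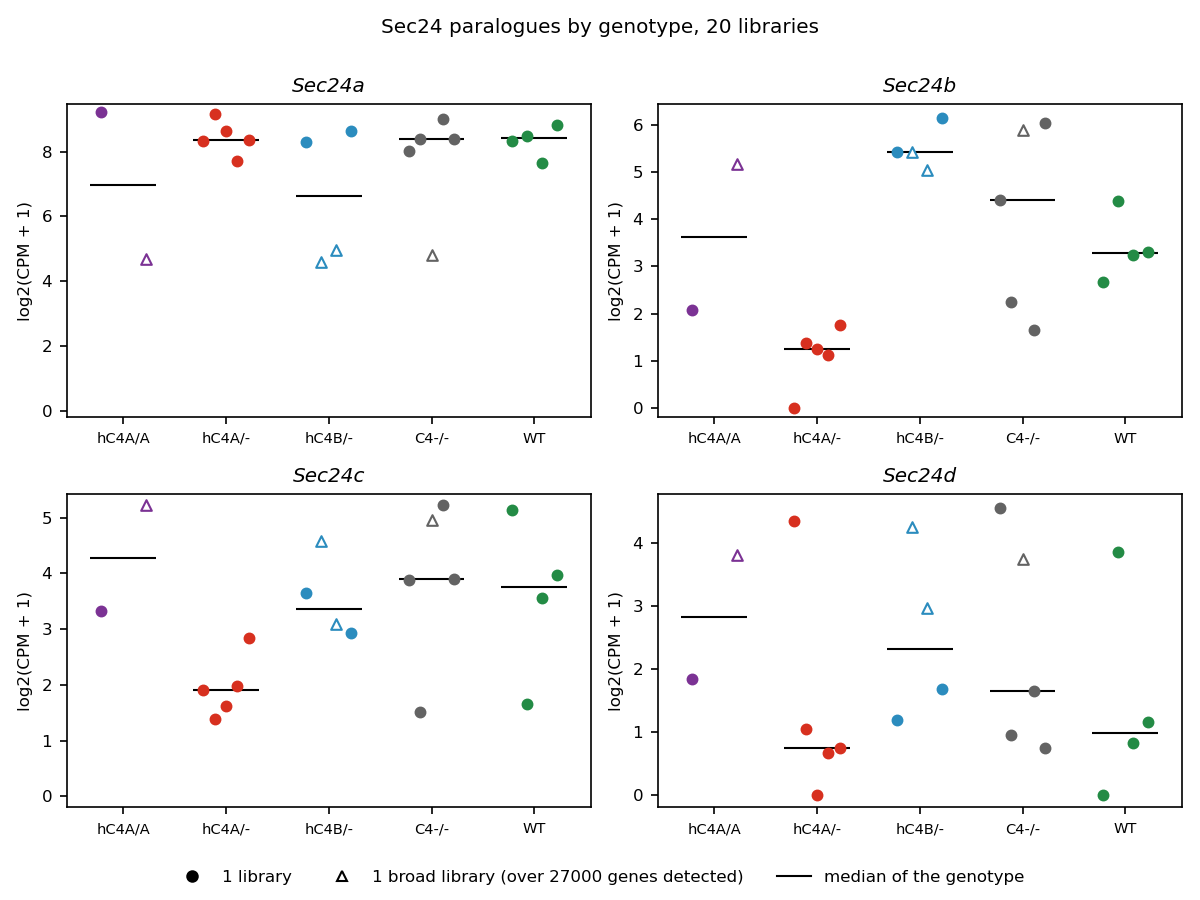
Each point is 1 of 20 libraries, placed by genotype label on the horizontal axis and by log2(CPM + 1) on the vertical axis, with open triangles for the 4 broad libraries and a bar at the median. Sec24b and Sec24c have their lowest medians in hC4A/-, Sec24a in hC4A/- (210 to 576 CPM) lies above all 4 broad libraries (22.9 to 29.9 CPM), and Sec24d rests on single libraries.

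None of the other 3 Sec24 genes was higher in hC4A/- by the test, and Sec24c had a lower estimate. In each of the 3 contrasts of hC4A/-, 0 of 12680 genes (0%) passed the edgeR threshold of 0.05 on the adjusted p, so no member could stand out there. At an unadjusted p under 0.05 it counted 1354 genes (10.7%) in hC4A/- against C4-/-, 2122 (16.7%) against hC4B/- and 952 (7.51%) against WT. Of the 9 members other than Sec24b, 1 met that looser threshold in each of the 3 contrasts, and it was Sec24c each time. Sec24c kept an unadjusted p under 0.05 in 28 of 28 alternative settings against C4-/-, in 17 of 28 against hC4B/- and in 26 of 28 against WT. Against hC4B/- it was lost with no filter on low counts, with voom, without the broad libraries, without satellite-like genes and in 7 fits that left out 1 library, and against WT with voom and without WT replicate 1. A share of 1 in 9 is near the background against C4-/- and WT and under it against hC4B/-, so the count is no result about the family.

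Sec24a (ENSMUSG00000036391, chromosome 11, 51692264 to 51763634, minus strand), the closest paralogue of Sec24b, was the most abundant Sec24 gene. It had 602 and 24.6 CPM in hC4A/A, 318, 576, 398, 210 and 325 CPM in hC4A/-, 310, 22.9, 29.9 and 396 CPM in hC4B/-, 258, 336, 26.9, 517 and 333 CPM in C4-/-, and 323, 354, 199 and 455 CPM in WT. The 4 broad libraries were the low ones, at 22.9 to 29.9 CPM, and hC4A/- overlapped hC4B/-, C4-/- and WT among the other 16. The highest value was that of hC4A/A replicate 1. Means were 365 ± 136 CPM in hC4A/- (SD, n = 5), against 294 ± 177 in C4-/- (n = 5), 190 ± 192 in hC4B/- (n = 4) and 333 ± 106 in WT (n = 4). In hC4A/- against C4-/- the Sec24a log2 fold change was 0.31 ± 0.79 (SE, edgeR adjusted p = 0.925), with a 95% interval of 0.384 to 4.02 on the fold. It was 0.13 ± 0.84 against WT (adjusted p = 1), with an interval of 0.316 to 3.82 on the fold. Against hC4B/- it was 0.94 ± 0.86 (adjusted p = 0.601), and -0.06 without the broad libraries, which make up 2 of the 4 hC4B/- libraries. Differences of Sec24a inside these intervals were not detectable at this depth and spread.

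Sec24c (ENSMUSG00000039367, chromosome 14, 20674308 to 20694852, plus strand), of the other subfamily and essential for mouse embryos, was low in hC4A/- as Sec24b was. It had 9.03 and 36.3 CPM in hC4A/A, 2.76, 1.61, 2.06, 2.93 and 6.12 CPM in hC4A/-, 11.5, 22.9, 7.49 and 6.58 CPM in hC4B/-, 13.8, 1.86, 30.1, 36.5 and 14 CPM in C4-/-, and 34.0, 2.14, 10.7 and 14.6 CPM in WT. The hC4A/- libraries lay below all libraries of hC4A/A and hC4B/-, and overlapped those labelled C4-/- and WT, each of which has 1 library at their level. How many of all genes separate in this way was not counted. Outside hC4A/- the 2 genes parted in single libraries: C4-/- replicate 4 had 36.5 CPM of Sec24c and 2.15 CPM of Sec24b, and WT replicate 2 had 2.14 CPM of Sec24c and 19.9 CPM of Sec24b. The 5 hC4A/- libraries held 33 counts of Sec24c in all, from 3 to 18 per library, against 161 in C4-/-, 66 in hC4B/- and 155 in WT. The mean was 3.10 ± 1.77 CPM in hC4A/- (SD, n = 5), against 19.3 ± 13.9 in C4-/- (n = 5), 12.1 ± 7.51 in hC4B/- (n = 4) and 15.4 ± 13.5 in WT (n = 4).

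For Sec24c the log2 fold change in hC4A/- was -2.59 ± 0.89 against C4-/- (SE, edgeR adjusted p = 0.418, unadjusted 0.00659), with a 95% interval of 0.0443 to 0.619 on the fold. It was -1.91 ± 0.91 against hC4B/- (adjusted p = 0.290, unadjusted 0.0443) and -2.28 ± 0.91 against WT (adjusted p = 0.529, unadjusted 0.0178). None passed after adjustment over all genes. The median of all tested genes was -0.32, -0.14 and -0.05 in these contrasts, and the Sec24c values stand beside these medians. Without the broad libraries the median of all genes against C4-/- was 0 and Sec24c was at -2.35. The estimate was below 0 under all 28 alternative settings in each contrast, the 20 that leave out 1 library included, and ran from -2.88 to -2.22 against C4-/-. Across all 5 genotypes Sec24c did not pass either (edgeR F test, adjusted p = 0.440), where 15 genes (0.118%) did. In hC4A/A against hC4A/- it was 2.80 ± 1.05 (SE, edgeR adjusted p = 0.360), and 1.54 without the broad hC4A/A replicate 2. The 3 contrasts share the 5 hC4A/- libraries, so they are not independent of each other. Exons of Sec24c overlap those of the antisense gene 6230400D17Rik over 214 bases, and the counts do not resolve strand.

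Sec24d (ENSMUSG00000039234, chromosome 3, 123267455 to 123365641, plus strand), the partner of Sec24c in its subfamily, known from a human skeletal disorder, was the least counted member. It had 2.58 and 13 CPM in hC4A/A, 19.3, 1.07, 0, 0.585 and 0.681 CPM in hC4A/-, 1.28, 18.1, 6.81 and 2.19 CPM in hC4B/-, 22.4, 0.932, 12.5, 2.15 and 0.665 CPM in C4-/-, and 0, 13.5, 0.767 and 1.22 CPM in WT. Outside the broad libraries, 1 library each of hC4A/-, C4-/- and WT was high and the others were at 2.58 CPM or less. The log2 fold change in hC4A/- was -0.85 ± 1.29 against C4-/- (SE, edgeR adjusted p = 0.848), and -3.54 without hC4A/- replicate 1, the high library. Against hC4B/- it was -0.69 ± 1.37 (adjusted p = 0.835) and against WT 0.17 ± 1.38 (adjusted p = 1).

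Levels can be set side by side between genes only per length, here as CPM per kilobase of exon model. Outside the broad libraries the median was 31.3 CPM per kb for Sec24a, 1.24 for Sec24c, 0.753 for Sec24b and 0.181 for Sec24d. Of the summed Sec24 level per length, Sec24b took 0.658 ± 0.472% in hC4A/- (SD, n = 5, range 0 to 1.24%), against 34.4 ± 16% in hC4B/- (n = 4), 17.6 ± 21.0% in C4-/- (n = 5) and 5.13 ± 2.83% in WT (n = 4). It was 0.912% in hC4A/A replicate 1 and 36.5% in the broad replicate 2. Outside the broad libraries the Sec24b share in hC4B/- was 18.4% and 23.1%, and in the libraries labelled C4-/- it ran from 0.650% to 24.5%. The broad libraries held a Sec24b share of 36.5% to 51.2% and the other 16 one of 0 to 24.5%, and the part of that difference in the genotype means was not tested.

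The level of the 3 other Sec24 genes together was 35.4 ± 12.4 CPM per kb in hC4A/- (SD, n = 5), against 20.8 ± 16.5 in hC4B/- (n = 4), 31.8 ± 16 in C4-/- (n = 5) and 34.2 ± 10.2 in WT (n = 4). Outside the broad libraries it was 34.8 ± 5.24 in hC4B/- (n = 2) and 37.4 ± 11.5 in C4-/- (n = 4). The single hC4A/A library there, replicate 1, had the level of 58.2 CPM per kb at a Sec24b share of 0.912%. The broad hC4A/A replicate 2 had 10.1 CPM per kb. Among the means of hC4A/-, hC4B/-, C4-/- and WT outside the broad libraries, the gaps were smaller than each SD. With the broad libraries, the mean of hC4B/- was lower than that of hC4A/- by more than the SD in hC4A/- and less than the SD in hC4B/-. Sec24a alone made up 89.5% to 98.7% of the Sec24 level in hC4A/-, so the sum follows that gene.

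**Figure D2:**
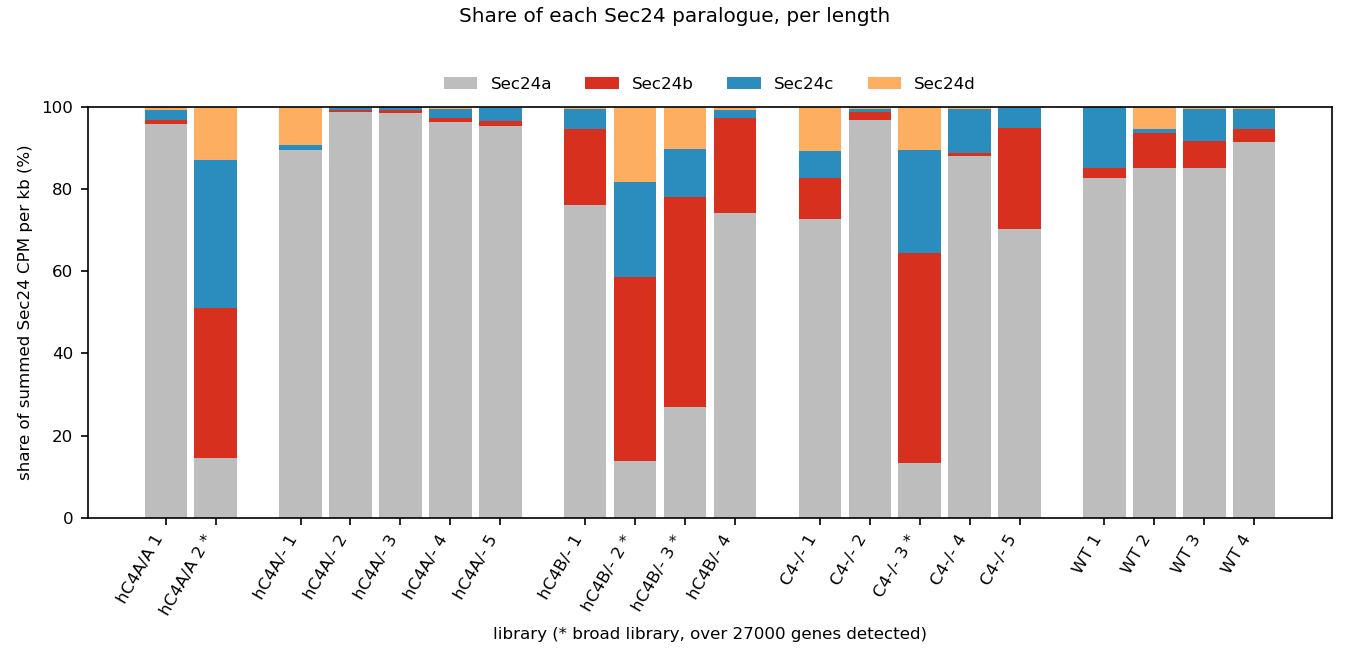
Bars stack the share of each Sec24 gene in the summed Sec24 CPM per kb of exon (vertical axis, percent) for each of 20 libraries, ordered by genotype label, with an asterisk at the 4 broad libraries. Sec24a takes 89.5% to 98.7% in hC4A/- and 13.3% to 27.0% in the broad libraries, and the Sec24b share in hC4A/- stays at or under 1.24%.

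Across the 16 libraries outside the broad ones, the level of the other members is set beside that of Sec24b as a description, since these libraries include hC4A/-. Over log2 CPM, r with Sec24b was -0.13 for Sec24a, 0.32 for Sec24c and 0.07 for Sec24d, and the Sec24c value was -0.15 once each genotype's mean was removed. The relation was tested in the 11 libraries that are neither hC4A/- nor broad, a subset added after the data were seen. Sec24b was chosen as low in hC4A/- relative to other genotypes, so these libraries are not fully independent of that choice. No member followed Sec24b by that test. Sec24a had Pearson r = -0.32 (permutation p = 0.334, adjusted over 9 members 0.811) and Spearman rho = -0.37 (permutation p = 0.262, adjusted 0.716). Sec24c had r = -0.19 (permutation p = 0.579, adjusted 0.811) and rho = -0.16 (p = 0.636, adjusted 0.716). Sec24d had r = 0.17 (permutation p = 0.631, adjusted 0.811) and rho = 0.091 (p = 0.796, adjusted 0.796). Without the 2 libraries farthest from the Sec24b median r was -0.50 for Sec24a, -0.22 for Sec24c and 0.42 for Sec24d. Of the 9 members, Sec13, the cage subunit that also serves in the nuclear pore, had the highest r, at 0.63 (permutation p = 0.0344, adjusted 0.310), with rho = 0.64 (p = 0.0394, adjusted 0.238), and r was 0.33 without those 2 libraries. Sar1b had the lowest r, at -0.56 (permutation p = 0.0728, adjusted 0.327), with rho = -0.61 (p = 0.0529, adjusted 0.238), and r was -0.66 without them. The 11 libraries come from 4 genotypes, and their number limits what such a test can show. Tests first planned used the 16 libraries, hC4A/- included, so their p-values are not fully independent of the choice. As they stood, Sec13 did not pass (r = 0.49, adjusted permutation p = 0.480). With genotype means removed Sec13 passed on r (0.67, permutation p = 0.00414, adjusted 0.0373) and not on rho (0.49, adjusted 0.508). That r was 0.30 without the 2 libraries farthest from the Sec24b median.

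The 5 genes whose level was most like that of Sec24b, by Spearman rho over the same 16 libraries among 12679 other tested genes, were Map1b (0.84), Prdm15 (0.83), Gm42725 (0.82), Cog2 (0.82) and Mmp28 (0.81). Map1b encodes a microtubule-associated protein, Prdm15 a zinc finger regulator, Cog2 a subunit of a Golgi tethering complex and Mmp28 a secreted metalloproteinase. These libraries ran from 1129302 to 2735181 counts, with 13.3% to 58.8% of counts on satellite-like genes, and rho is a description. In the same ranking Sec24c was number 1041 and Sec24a number 9798.

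**Figure D3:**
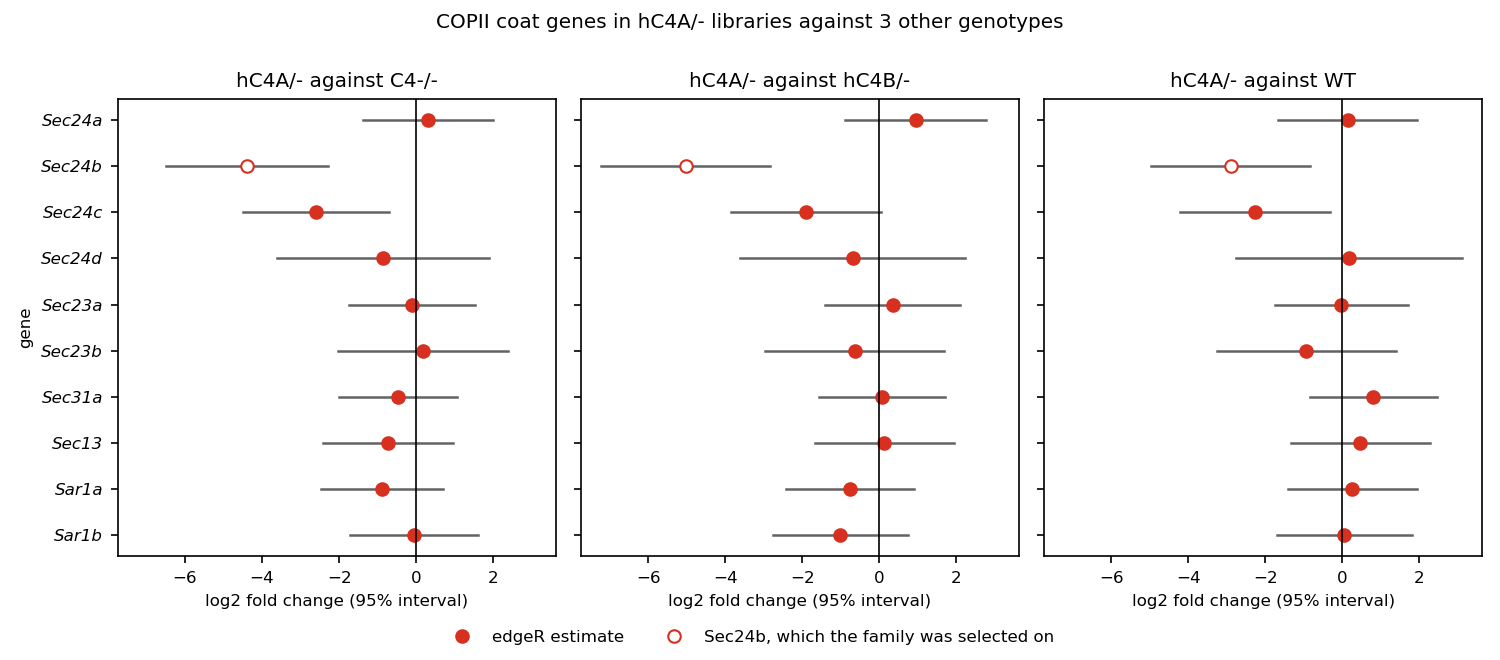
Points are edgeR log2 fold changes of the 10 COPII coat genes in hC4A/- against C4-/-, hC4B/- and WT (1 panel each), with lines for the 95% interval and an open point for Sec24b, on which the family was selected. Of the other 9 genes, Sec24c alone has an interval clear of 0, against C4-/- and against WT, before any adjustment over genes. Against hC4B/- its interval (-3.86 to 0.033) holds 0 though its unadjusted edgeR p is 0.0443, because intervals use fewer degrees of freedom than the p.

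The 2 Sec23 genes, which encode the GTPase-activating part of the inner coat, did not differ by the test. Sec23a (ENSMUSG00000020986, chromosome 12, 58958383 to 59012017), known from a human craniofacial disorder, had 22.6 and 7.77 CPM in hC4A/A, 10.4, 13.4, 8.24, 26.9 and 3.06 CPM in hC4A/-, 13.7, 8.44, 3.40 and 13.2 CPM in hC4B/-, 15.5, 13.1, 6.55, 11.8 and 20.0 CPM in C4-/-, and 17.7, 12.1, 8.43 and 12.2 CPM in WT. All genotypes overlapped. Its log2 fold change in hC4A/- against C4-/- was -0.11 ± 0.76 (SE, edgeR adjusted p = 0.980), and its exons overlap those of the antisense gene Gm17529 over 431 bases. Sec23b (ENSMUSG00000027429, chromosome 2, 144556229 to 144590749), known from a human dyserythropoietic anaemia, had 21.3 and 27.2 CPM in hC4A/A, 6.90, 1.61, 2.06, 2.93 and 27.9 CPM in hC4A/-, 13.7, 18.1, 17 and 3.65 CPM in hC4B/-, 15.5, 1.86, 12.5, 0 and 7.32 CPM in C4-/-, and 1.67, 1.42, 52.1 and 9.75 CPM in WT. It was low in 4 of the 5 hC4A/- libraries and high in replicate 5. Its log2 fold change in hC4A/- against C4-/- was 0.17 ± 1.04 (SE, edgeR adjusted p = 0.978), and -0.79 without replicate 5.

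Of the outer cage, Sec31a (ENSMUSG00000035325, chromosome 5, 100361649 to 100416234) was highest in hC4A/A and lowest in WT. It had 52.6 and 36.3 CPM in hC4A/A, 15.9, 5.37, 19.2, 30.4 and 17.7 CPM in hC4A/-, 8.12, 22.9, 10.9 and 25.6 CPM in hC4B/-, 19, 26.1, 32.1, 24.2 and 22 CPM in C4-/-, and 2.67, 5.69, 5.37 and 26.4 CPM in WT. Both hC4A/A libraries, 1 of them broad, lay above all others. Of the 4 WT libraries 3 lay at 5.69 CPM or less, with 1 WT library among the other genotypes. How many of all genes separate in this way was not counted. The log2 fold change was 2.13 ± 0.94 in hC4A/A against WT (SE, edgeR adjusted p = 0.589, unadjusted 0.0306) and -0.48 ± 0.72 in hC4A/- against C4-/- (adjusted p = 0.848). Of 12680 genes, 1066 had an unadjusted p under 0.05 in hC4A/A against WT. Sec31a was not among those under 0.05 with no filter on low counts, without satellite-like genes, or without WT replicate 1, 2 or 3. Sec13 (ENSMUSG00000030298, chromosome 6, 113728062 to 113740743) had 20.3 and 9.07 CPM in hC4A/A, 6.21, 12.4, 10.3, 66.1 and 47.0 CPM in hC4A/-, 21.8, 13.3, 27.9 and 40.9 CPM in hC4B/-, 46.6, 16.8, 18.4, 5.37 and 149 CPM in C4-/-, and 23.4, 7.83, 35.3 and 15.8 CPM in WT. It varied over more than 10-fold within hC4A/- and within C4-/-, and the log2 fold change between them was -0.73 ± 0.80 (SE, edgeR adjusted p = 0.758).

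The 2 Sar1 genes, which encode the GTPase that starts coat assembly, likewise did not differ by the test. Sar1a (ENSMUSG00000020088, chromosome 10, 61680299 to 61693297) had 30.3 and 16.8 CPM in hC4A/A, 12.4, 9.13, 3.43, 20.5 and 14.3 CPM in hC4A/-, 14.9, 37.4, 22.5 and 6.58 CPM in hC4B/-, 29.9, 32.6, 22.3, 8.59 and 18 CPM in C4-/-, and 16.7, 3.56, 6.13 and 13.4 CPM in WT. Its log2 fold change in hC4A/- against C4-/- was -0.89 ± 0.74 (SE, edgeR adjusted p = 0.657), with overlapping libraries. Sar1b (ENSMUSG00000020386, chromosome 11, 51763687 to 51791925), known from a human disorder of intestinal fat export, had 51.3 and 10.4 CPM in hC4A/A, 13.8, 25.8, 32.3, 33.9 and 72.5 CPM in hC4A/-, 36.7, 3.62, 216 and 32.2 CPM in hC4B/-, 25.3, 51.3, 5.90, 70.4 and 33.9 CPM in C4-/-, and 30.7, 15.7, 55.2 and 37.0 CPM in WT. Its log2 fold change in hC4A/- against C4-/- was -0.06 ± 0.78 (SE, edgeR adjusted p = 0.988). Sar1b and Sec24a lie head to head, with 53 bases between their GENCODE starts, and both were low in 3 of the 4 broad libraries. Per length Sar1b was the second most abundant member, with a median of 27.0 CPM per kb outside the broad libraries, against 3.70 for Sar1a.

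**Figure D4:**
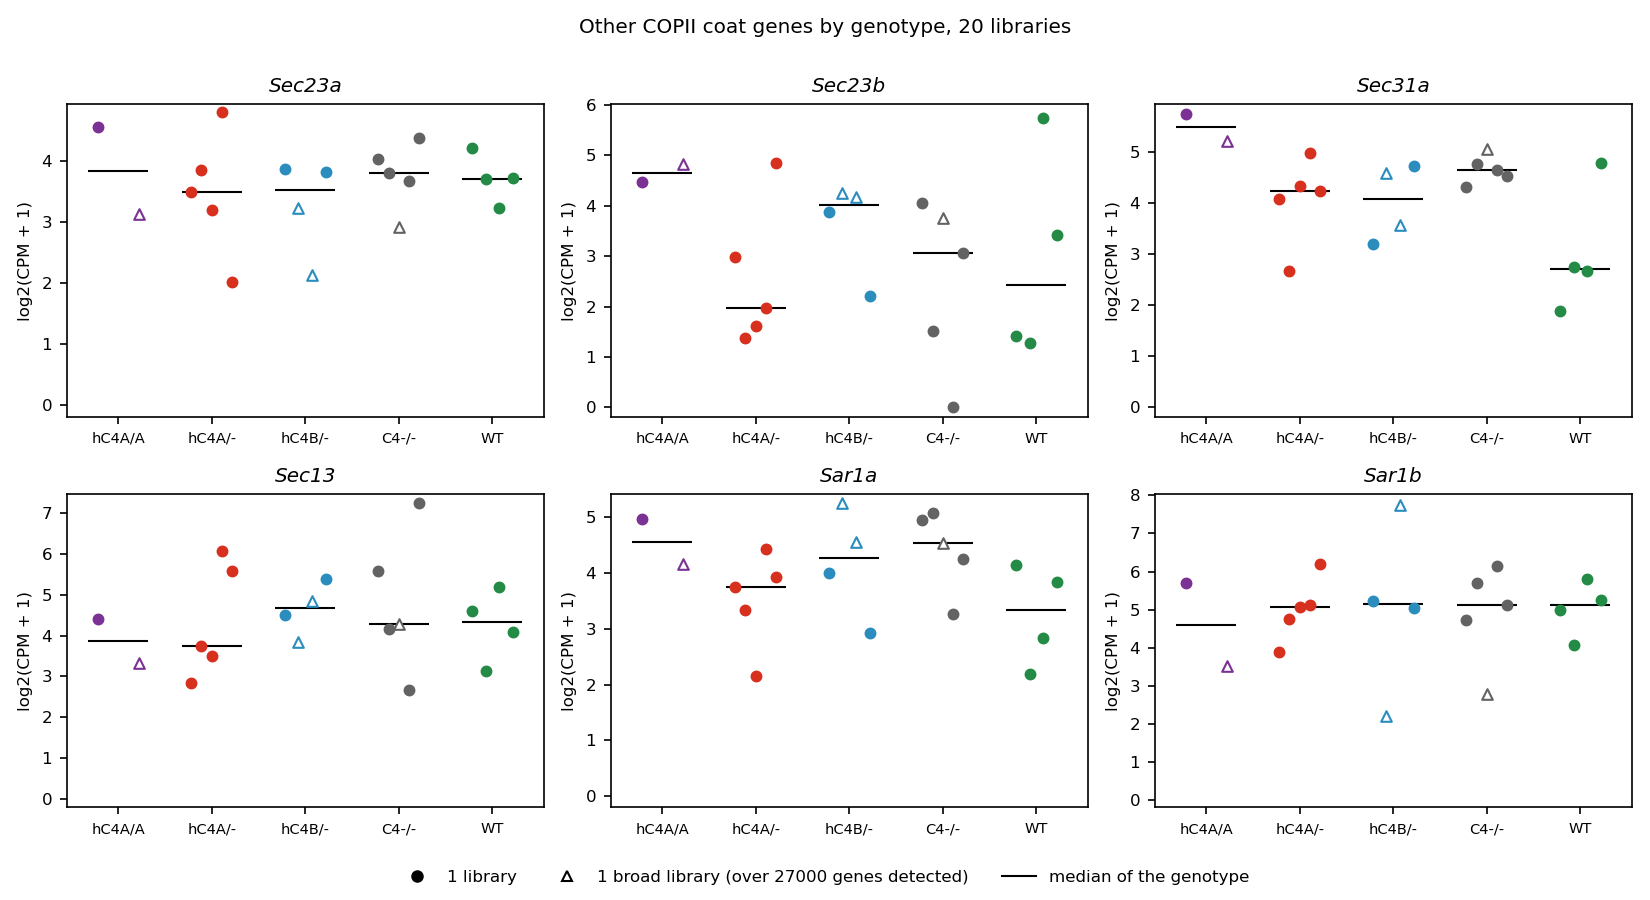
Each point is 1 of 20 libraries, placed by genotype label on the horizontal axis and by log2(CPM + 1) on the vertical axis, for the 6 COPII coat genes outside the Sec24 group, with open triangles for the 4 broad libraries and a bar at the median. The hC4A/- libraries overlap those labelled C4-/-, hC4B/- and WT for each gene. Both hC4A/A libraries of Sec31a (52.6 and 36.3 CPM) lie above all others, a separation not counted over all genes.

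Of the 10 members together, 2 lay above 0 and 8 below in hC4A/- against C4-/-, with a median log2 fold change of -0.60. Over all tested genes the median was -0.32 and 38.3% lay above 0. Against hC4B/- 4 lay above 0 and 6 below (median -0.66, all genes -0.14), and against WT 6 above and 4 below (median 0.09, all genes -0.05). Of all tested genes 46.3% lay above 0 against hC4B/- and 47.7% against WT. These counts include Sec24b. In the other 6 contrasts and in the F test over genotypes 0 members passed as well, against a background of 0% of genes in each contrast and 0.118% in the F test.

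Genes that work beside the coat were read from 5 lists, and 0 of their genes passed in any contrast. In hC4A/- against C4-/-, of 10 tested organisers and regulators of endoplasmic reticulum exit sites 3 lay above 0 and 7 below (median -0.49, all genes -0.32). The 2 of smallest p were Pef1, a calcium-binding partner of a COPII ubiquitin ligase, at 1.68 ± 1.19 CPM in hC4A/- against 5.79 ± 2.84 CPM in C4-/- (SD, n = 5 each), and Sec16a, the scaffold of exit sites, at 20.2 ± 13 against 40.8 ± 28.2 CPM. Their log2 fold changes were -1.75 ± 1.12 and -1.004 ± 0.68 (SE, edgeR adjusted p = 0.556 and 0.570).

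Of 19 cargo receptors, 9 lay above 0 and 10 below (median -0.02). Tmed5, a member of the p24 family, averaged 31.3 ± 17.1 CPM in hC4A/- against 118 ± 64.7 CPM in C4-/- (SD, n = 5 each), a log2 fold change of -1.91 ± 0.71 (SE, edgeR adjusted p = 0.436). Ergic2, a protein of the compartment between endoplasmic reticulum and Golgi, averaged 30.4 ± 13.2 CPM in hC4A/- against 8.63 ± 4.30 CPM in C4-/-, a log2 fold change of 1.80 ± 0.70 (SE, edgeR adjusted p = 0.436). Of 19 tethers and SNAREs 10 lay above 0 and 9 below (median 0.02), among them the Golgi stacking protein gene Gorasp1 (-2.59 ± 1.22, adjusted p = 0.460, and -1.20 without C4-/- replicate 5) and the tethering subunit gene Trappc4 (1.505 ± 0.85, adjusted p = 0.524).

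Of 13 genes of the COPI coat and retrieval, which carry material back to the endoplasmic reticulum, 4 lay above 0 and 9 below (median -0.18). Copb1 averaged 180 ± 90.1 CPM in hC4A/- against 57.9 ± 48.8 CPM in C4-/- (SD, n = 5 each), a log2 fold change of 1.64 ± 0.71 (SE, edgeR adjusted p = 0.444), and Copg1 had -1.73 ± 0.86 (adjusted p = 0.470, and -0.27 without the same replicate 5). Of 18 tested genes of folding and stress in the endoplasmic reticulum 5 lay above 0 and 13 below (median -0.38). The stress sensor Ern1 had -2.04 ± 1.08 (SE, edgeR adjusted p = 0.496) and the protease gene Mbtps1 -1.06 ± 0.80 (adjusted p = 0.621). Without the broad C4-/- replicate 3, Sec16a was at -0.36, Ern1 at -0.82 and Mbtps1 at -0.28. Beside these values, summed markers of other cells overlapped between hC4A/- and the other genotypes, except astrocyte markers in hC4A/A. Neurons were at 1.61 to 115 CPM in hC4A/- against 3.22 to 81.1 CPM in C4-/-. Astrocytes were at 4.14 to 53.4 CPM in hC4A/-, against 0.932 to 51.6 CPM in C4-/- and 66.1 to 72.6 CPM in hC4A/A. Neutrophil markers were at 0.537 to 114 CPM in hC4A/- (median 55.9), against 0 to 146 CPM in C4-/- (median 0.665) and 99.1 to 1346 CPM in WT (median 160). The part of these markers in the results was not tested.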

How the data were processed

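Deposited files held raw counts of reads per gene for each library, in the layout written by STAR. The submitters' processing notes name the aligner STAR, edgeR and mouse build GRCm38, without versions; which annotation the authors counted over is not stated. Gene symbols and coordinates came from GENCODE annotation of GRCm38, and promoter windows from RefSeq (GRCm38.p6), where all 10 members matched. Counts regardless of strand were used, as the stranded columns split each library evenly (49.7% to 49.9% on one strand). Summary rows (unmapped reads, reads with several hits, reads outside genes and ambiguous reads; 14.8% to 42.1%, 13.2% to 28.9%, 21.8% to 42.1% and 0.897% to 5.86% of reads) stayed out. Transcripts of paralogues shared identical runs of at most 20 bases.

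All 20 libraries entered 1 edgeR quasi-likelihood fit (edgeR 4.0.16, R 4.3.3; filterByExpr, TMM, robust), with 1 coefficient per genotype, 15 residual degrees of freedom and a biological coefficient of variation of 1.03. Of 54838 genes 12680 were tested, with Benjamini-Hochberg adjustment over all of them and a threshold of 0.05. CPM are counts over the TMM-scaled library size. Correlations used log2 CPM with a prior count of 2 and 100000 permutations, two-sided. The p is given for the 11 libraries outside hC4A/- and the broad ones, added after seeing the data. For Sec13 it is also given for the 16 libraries outside the broad ones, as first planned. The fit was tested on simulated data with a smaller spread between libraries than these data have. That test therefore does not show how the fit performs here. Alternatives were RLE scaling, no filter on low counts, DESeq2 1.42.0, voom (limma 3.58.1), a replicate block, fits of the 2 genotypes compared only, and fits without the broad libraries, without 13 satellite-like genes (13.3% to 81.0% of counts) and without each library. No molecular identifiers were used on the amplified cDNA, so the floor of 3 counts covers counting error only. The labels give a cell number per mouse, and each library was taken as 1 mouse; p-values measure the spread between these libraries.

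Named genes were all members, the 5 genes most like Sec24b, and in each list of neighbours in the pathway the 2 of smallest p in hC4A/- against C4-/-. Members, lists and tests were chosen with earlier results of these data known. A series table of the same counts was not used.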

Additional observations from a re-analysis of the deposited data

Results flagged for a closer look

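In 7 of the 40 combinations of a member and a genotype with 4 or 5 libraries (17.5%), 1 library stood apart from the others by Dixon's criterion. Chance meets that criterion in about 1 of 20 groups when values are normally distributed. It was applied here to CPM without a log, at a biological coefficient of variation of 1.03. That rate therefore need not hold, and 17.5% is not read as an excess. Sec24d reached 19.3 CPM in hC4A/- replicate 1, against 1.07 CPM or less in the other hC4A/- libraries, and 13.5 CPM in WT replicate 2, against 1.22 CPM or less in the other WT libraries. Sec23b reached 27.9 CPM in hC4A/- replicate 5, against 6.90 CPM or less in the others, and 52.1 CPM in WT replicate 3, against 9.75 CPM or less. Sec31a reached 26.4 CPM in WT replicate 4, against 5.69 CPM or less. Sec13 reached 149 CPM in C4-/- replicate 5, against 46.6 CPM or less. Sar1b reached 216 CPM in hC4B/- replicate 3, a broad library, against 36.7 CPM or less. All 7 stood out on the high side. Sec24a, Sec24b, Sec24c, Sec23a and Sar1a had no such library.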

How the results depend on the processing

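In the contrasts of hC4A/-, none of the members tested, other than Sec24b, passed after adjustment under any alternative with a fit. Sec24d was not tested in the fits of the 2 genotypes alone, which read 8 members; the other alternatives read 9. Counts over all genes moved more. In hC4A/- against C4-/-, against hC4B/- and against WT, where edgeR called 0, the count was 53, 36 and 65 with no filter on low counts and 10, 58 and 21 with DESeq2. voom called 1 gene against C4-/- and 1 against WT. Fits of the 2 genotypes alone called 1 against hC4B/- and 1 against WT, and the fit without the broad libraries called 1 against WT. Leaving out 1 library gave 0 to 8 genes against hC4B/-, the most without hC4B/- replicate 1 (8) and replicate 4 (5). In hC4A/A against hC4A/- DESeq2 called 1 and voom 6. In C4-/-, hC4B/- and hC4A/A against WT the count was 26, 28 and 3 without the filter and 20, 53 and 2 with DESeq2, and in hC4B/- against C4-/- 16 and 3. For hC4B/- against WT the 2 genotypes alone gave 1 and leaving out 1 library 0 to 2, and for hC4A/A against WT leaving out 1 library gave 0 to 1. The F test over genotypes called 15 genes, 24 with RLE scaling, 697 without the filter, 65 with DESeq2, 0 with voom, 2 without the broad libraries and 0 to 34 when 1 library was left out.

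Directions near 0 turned. In hC4A/- against C4-/-, Sec23a was 0.24 without the filter, 0.20 without satellite-like genes and 0.023 with the 2 genotypes alone. Sec23b was -0.072 with RLE scaling, -0.074 with DESeq2, -0.046 with the replicate block and -0.032 with the 2 genotypes alone. Sar1b was 0.039 without the filter and 0.15 with voom. Against hC4B/-, Sec24a was -0.060 without the broad libraries, and Sec24d 0.12 without the filter and 1.18 without the broad libraries. Leaving out 1 library gave, against C4-/-, -3.54 to 0.056 for Sec24d, -0.61 to 0.42 for Sec23a, -0.79 to 0.69 for Sec23b, -1.31 to 0.38 for Sec13 and -0.29 to 0.30 for Sar1b. Against hC4B/- it gave -3.38 to 0.31 for Sec24d, and against WT -0.090 to 0.34 for Sec24a and -2.52 to 2.77 for Sec24d. Sec24b in hC4A/A against WT was -0.18 without the filter and with voom, -1.81 without the broad libraries, and -1.65 to 1.70 with 1 library left out. Removing genotype means turned the r with Sec24b to -0.15 for Sec24c and 0.0022 for Sec31a, and brought that of Sec13 to 0.67. In the 11 libraries outside hC4A/- and the broad ones, a subset added after seeing the data, r was -0.19 for Sec24c. The cause was not tested. RLE scaling moved the median of all genes in hC4A/- against hC4B/- from -0.14 to -0.47, and the Sec24c value there to -2.36.

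Shared replicate numbers gave no clear sign of pairing. Deviations from genotype means had a median correlation of 0.0083 over 33 same-numbered pairs, from -0.30 to 0.70. Over 124 other pairs the median was -0.0014, from -0.71 to 0.71. The correlation was over 0.1 in 5 of the 33 and in 12 of the 124. A median near 0 cannot show that no libraries were paired. The replicate block called 0 genes in each contrast and 0 in the F test, against 15 without it. Depth limits Sec24b, Sec24c and Sec24d, which held 14, 33 and 33 counts over the 5 hC4A/- libraries, so that single reads move their values.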
